A study of Mus musculus with 6 samples.

Results

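The protein genes of the large, 60S subunit of the ribosome were followed in mouse erythroblasts that had been cultured with or without added cholesterol. The 45 genes were taken by symbol from a list of large-subunit proteins. All 45 were among the 17463 genes of the deposited tables, and all 45 were among the 11277 genes that passed a filter on low counts and were tested.

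The cells came from C57BL/6J mice. The starting cells were red cell precursors of the fetal liver that did not yet carry TER119, a surface antigen of late erythroid cells, and erythropoietin (Epo), the hormone that drives red cell production, was in the medium of both groups. The control group held 3 samples that the labels call untreated and a figure legend of the study calls vehicle-treated, and the cholesterol group held 3 samples cultured with 40 μM cholesterol, all for 30 h. According to the study's methods the cells that had become TER119-positive by then were sorted for sequencing, so both groups passed the same gate. Polyadenylated RNA was read in single-end reads of 50 bases. Samples carry the numbers 1 to 3 in each group, and the labels do not say whether a number marks a litter, a culture or a day, so p-values measure the spread between these samples, which may be in part technical.

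The large subunit joins amino acids at its peptidyl transferase centre and releases the growing chain through an exit tunnel. Its protein stalk, built on Rplp0, draws in the translation factors. Rpl5 and Rpl11 join the 5S ribosomal RNA as a particle that is built into the subunit, and when it is not used there this particle binds MDM2, the ligase that marks p53 for breakdown. Erythroid precursors are known for their sensitivity to a shortage of ribosomal proteins: inherited loss of 1 copy of several of these genes causes Diamond-Blackfan anaemia, in which red cell precursors fail. Messenger RNAs of ribosomal proteins start with a run of pyrimidines (the 5′ terminal oligopyrimidine, or TOP, motif) through which their translation is controlled by mTOR. RNA sequencing sees the amount of these messengers and not their translation.

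Depth hardly differed between libraries, with totals from 19826797 to 20061702 counts. All 12 erythroid markers were detected, with a summed level of 140600.4 to 209001 CPM (each count set relative to the size of its library), so the erythroid label matched its markers. The 4 markers of hepatocytes, the other main cells of fetal liver, summed to 63.2 to 261 CPM, and 0 of them were called in either fit. Markers of other blood cells were also present, and the sums of the granulocyte, macrophage and mast cell lists followed both the number and the condition. The 9 granulocyte markers summed to 70.4, 253 and 674 CPM in controls 1 to 3 and to 40.5, 110 and 281 CPM in cholesterol samples 1 to 3. The 8 macrophage markers summed to 18.4, 42.5 and 130 CPM and to 13.1, 19.3 and 57.9 CPM, and the 2 tested of 6 mast cell markers to 1.47, 3.17 and 15.6 CPM and to 0.44, 0.99 and 2.15 CPM. These 2 were low, where 3 counts equal 0.15 CPM, and the filter on low counts can be passed through the controls alone. All 6 mast cell markers together took 0.00017%, 0.00045% and 0.0018% of counts in controls 1 to 3. In cholesterol samples 1 to 3 they took 5.5e-05%, 0.00014% and 0.00029%. The 5 tested of 6 progenitor markers summed to 25.3, 31 and 53.5 CPM in controls and to 18.1, 18.8 and 19.9 CPM in cholesterol samples. The median of their log2 fold changes was -1.19, all 5 were lower in all 3 pairs (20.1% of all genes were), and 4 of 5 were called lower with the replicate number as a block in edgeR (5.20% of all genes were). The 4 megakaryocyte markers summed to 60.2 to 73 CPM in controls and to 57.9 to 64.6 CPM in cholesterol samples, with no order by number, and 1 of them was called lower with the block. None of the 23 granulocyte, macrophage and mast cell markers was at 0 in every sample. Their part in the results below was not tested. In bulk samples, fewer cells of a type and less RNA per cell cannot be told apart.

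Start-site sequences are shown for members named in the results, and for Rpl15 and Rpl7a as examples of long runs, since the TOP motif and the promoter are the features these genes are known to share. The windows cover 40 bases before and 20 bases from the annotated start in RefSeq on GRCm38.p6, 5′ to 3′ on the gene's strand, and capitals mark an unbroken run of at least 8 pyrimidines that touches the stretch from 10 bases before to 20 bases after that start. Rpl14 (chr9:120571477-120571536, plus strand), Rpl37 (chr15:5116573-5116632, plus) and Rpl12 (chr2:32961672-32961731, plus) are 3 of the 4 members called higher below. Rpl36, the other one, had no entry in the table.
Rpl14: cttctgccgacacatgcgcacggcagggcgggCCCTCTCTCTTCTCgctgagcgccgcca
Rpl37: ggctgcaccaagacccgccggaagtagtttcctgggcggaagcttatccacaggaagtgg
Rpl12: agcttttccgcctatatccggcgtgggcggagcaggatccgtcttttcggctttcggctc
Rpl5 (chr5:107900488-107900547, plus) and Rpl11 (chr4:136053374-136053433, minus) form the 5S particle, and the run of Rpl11 goes on past the window, to 17 bases in all.
Rpl5: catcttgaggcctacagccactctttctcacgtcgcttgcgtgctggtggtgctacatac
Rpl11: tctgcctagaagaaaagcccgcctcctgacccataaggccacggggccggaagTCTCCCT
Rplp2 (chr7:141447611-141447670, plus) belongs to the stalk, and Rpl15 (chr14:18270967-18271026, minus) and Rpl7a (chr2:26910767-26910826, plus) hold long runs of 17 and 21 bases.
Rplp2: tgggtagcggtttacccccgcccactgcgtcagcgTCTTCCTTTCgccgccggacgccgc
Rpl15: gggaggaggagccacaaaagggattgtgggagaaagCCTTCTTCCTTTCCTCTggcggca
Rpl7a: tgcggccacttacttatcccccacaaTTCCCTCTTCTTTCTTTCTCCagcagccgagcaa

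Of the 45 members, 34 had a start in the RefSeq table. A pyrimidine run as defined above was counted in 19 of these 34 genes, or 55.9%, beside 45.8% of 24 genes of 40S proteins and 19.2% of all 27025 genes in the table. Some counted runs end before the annotated start, as in Rpl31 and Rpl4, or begin after it, as in Rpl11 and Rpl10a. Rpl5 holds a run that ends just short of the searched stretch. A gene without a counted run is thus not shown to lack a TOP start. The ETS core CCGGAAG, searched on both strands from 250 bases before to 50 bases after the start, was in 14 of 34 members, or 41.2%, against 41.7% of the 40S genes and 9.93% of all genes. The YY1 word AAGATGGC was in 3 of 34 members (8.82%, against 3.19% of all genes), and TATAAA in 4 of 34 (11.8%, against 15.7%). The sterol-response word CACCCCAC was in 0 of 34 members and in 3.3% of all genes, which says only that these letters are not in this window. Members with a counted run had a median log2 fold change of 0.08 (n = 19) with cholesterol, and those with a promoter but no counted run had 0.10 (n = 15). With and without the ETS word the medians were 0.09 (n = 14) and 0.10 (n = 20).

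These messengers were abundant, and their levels per length spanned a wide range. The 45 genes together took 4.41%, 4.11% and 3.69% of all counts in controls 1 to 3, and 4.77%, 4.57% and 3.84% in cholesterol samples 1 to 3. Both groups fell in the same order of sample number, and within each number the cholesterol sample held the larger share. Globin messengers took 12.5% to 17.9% of the counts, and with the globin genes left out of the total the shares were 5.16%, 4.77% and 4.50% in control and 5.45%, 5.25% and 4.58% in cholesterol samples. The mean level of the 60S members was 0.983 to 0.997 of that of the 32 genes of 40S proteins in every sample, in FPKM, the level per length of the transcript.

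Rplp1, one of the acidic stalk proteins, had the highest level, with 3241, 3159 and 2597 FPKM in control and 3415, 3351 and 2888 FPKM in cholesterol samples. Rpl41, the shortest ribosomal protein, followed with 2939, 2621 and 2707 FPKM and 3293, 2984 and 2672 FPKM. Rpl23a, which lies at the exit of the tunnel, had 2664, 2497 and 2500.2 FPKM and 2765, 2870 and 2538 FPKM. The ranges of these 3 genes overlapped across samples, but within each sample Rpl23a was the lowest of the 3. Rplp1 lay above Rpl41 except in control sample 3. At the other end stood Rpl22, with 170.2, 163 and 149 FPKM and 186, 193 and 161 FPKM, then Rpl37, with 246, 204 and 194 FPKM and 279, 283 and 224 FPKM, and Rpl23, with 335, 305 and 277 FPKM and 391, 351 and 291 FPKM. The values of Rpl22 ended just below those of Rpl37, whereas Rpl37 and Rpl23 overlapped across samples, with Rpl37 the lower within each sample. The length implied by count and FPKM was 2211 bases for Rpl22, 857 bases for Rpl37 and 1058 bases for Rpl23, so the place of these genes depends on the transcript that was counted. With cholesterol the log2 fold changes were 0.08 ± 0.09 for Rpl41, 0.06 ± 0.07 for Rpl23a and 0.14 ± 0.12 for Rpl23 (SE), and none of the 3 was called with condition alone or with the replicate number as a block.

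**Figure D1:**
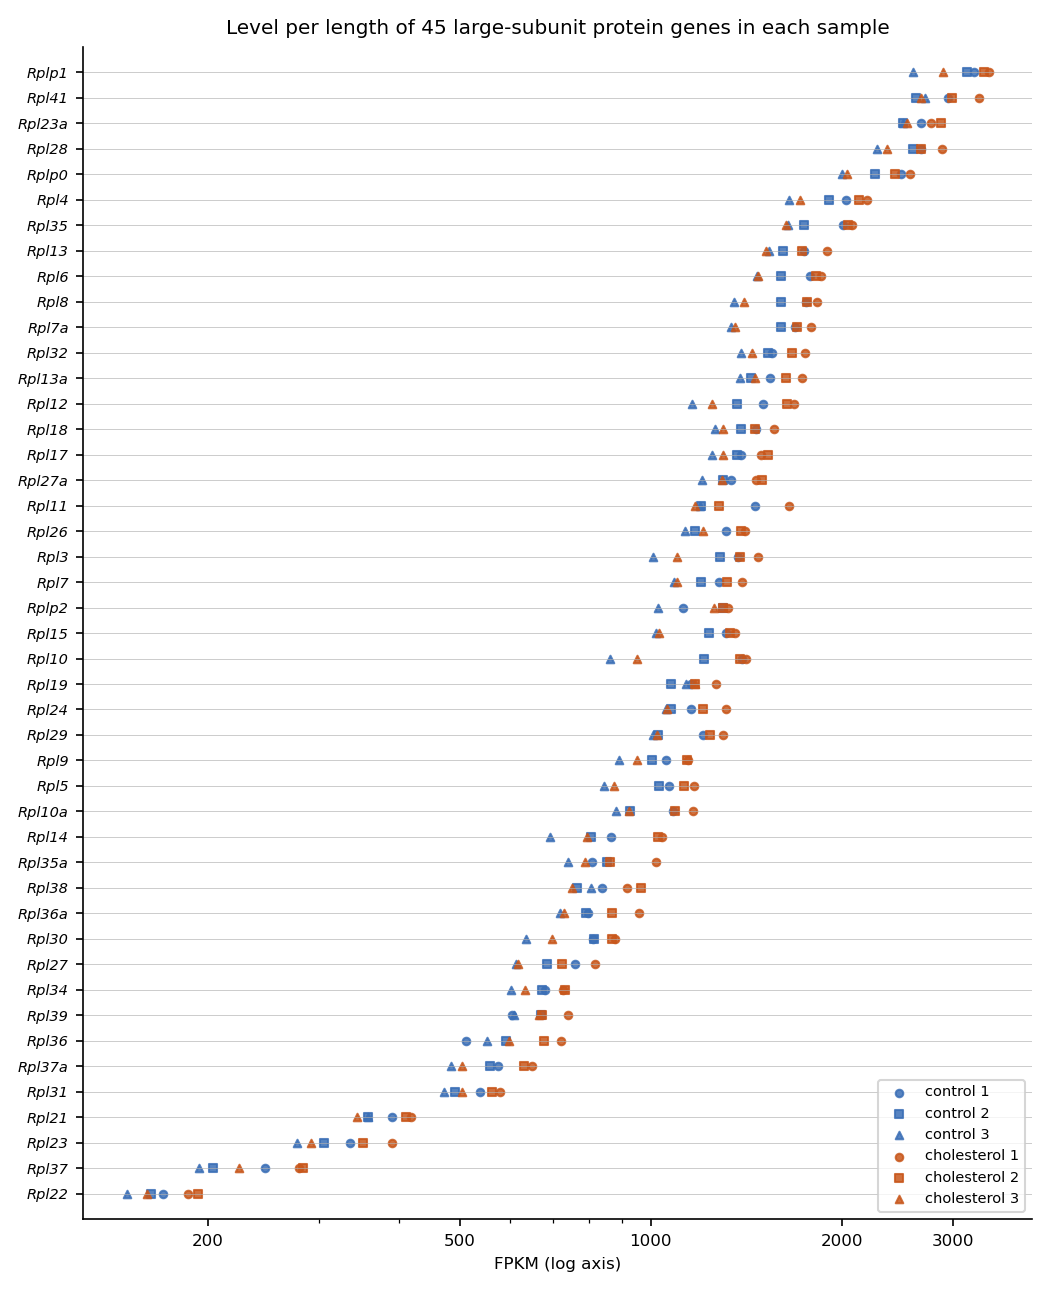
FPKM (log axis) of the 45 large-subunit protein genes in each of the 6 samples, ordered by mean. Blue marks control and orange cholesterol, and circles, squares and triangles mark numbers 1, 2 and 3. Rplp1 leads at a mean of 3108 FPKM and Rpl22 is last at 170.3 FPKM, and the triangles (number 3) lie to the left in most genes.

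With cholesterol the 45 genes stood slightly higher as a group, by less than the spread between samples. Every member had a positive log2 fold change in the comparison of 3 cholesterol with 3 control samples, from 0.03 for Rplp0 to 0.25 for Rpl37, beside 52.1% of all genes tested. This did not hold without every library: 34 members were positive and 11 negative without control sample 3, and again 34 and 11 without cholesterol sample 1. The median was 0.08 for the members, which is 1.06-fold, and 0.01 for all genes. It was 0.036 without cholesterol sample 1, 0.145 without control sample 1 and 0.153 without cholesterol sample 3. In edgeR's quasi-likelihood test with condition alone, 0 of 45 members were called higher at an adjusted p under 0.05 (0.00887% of all genes, that is 1 gene) and 0 were called lower (0.00%). The smallest adjusted p of a member was 0.9998. At an unadjusted p under 0.05 there was 1 member, Rpl36, which is near the background of 0.718%. DESeq2's Wald test also called 0 members, and so did limma on FPKM. All members share libraries and scaling, so their common sign is not 45 separate observations.

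The other 800 genes tested that lay at or above the lowest member in mean CPM had a median log2 fold change of 0.00, and 49.2% of them were positive. Within the 45 members the more abundant ones had the smaller differences: the correlation of log2 fold change with mean log2 CPM was r = -0.56 and rho = -0.54, over 45 genes that share the same 6 libraries.

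**Figure D2:**
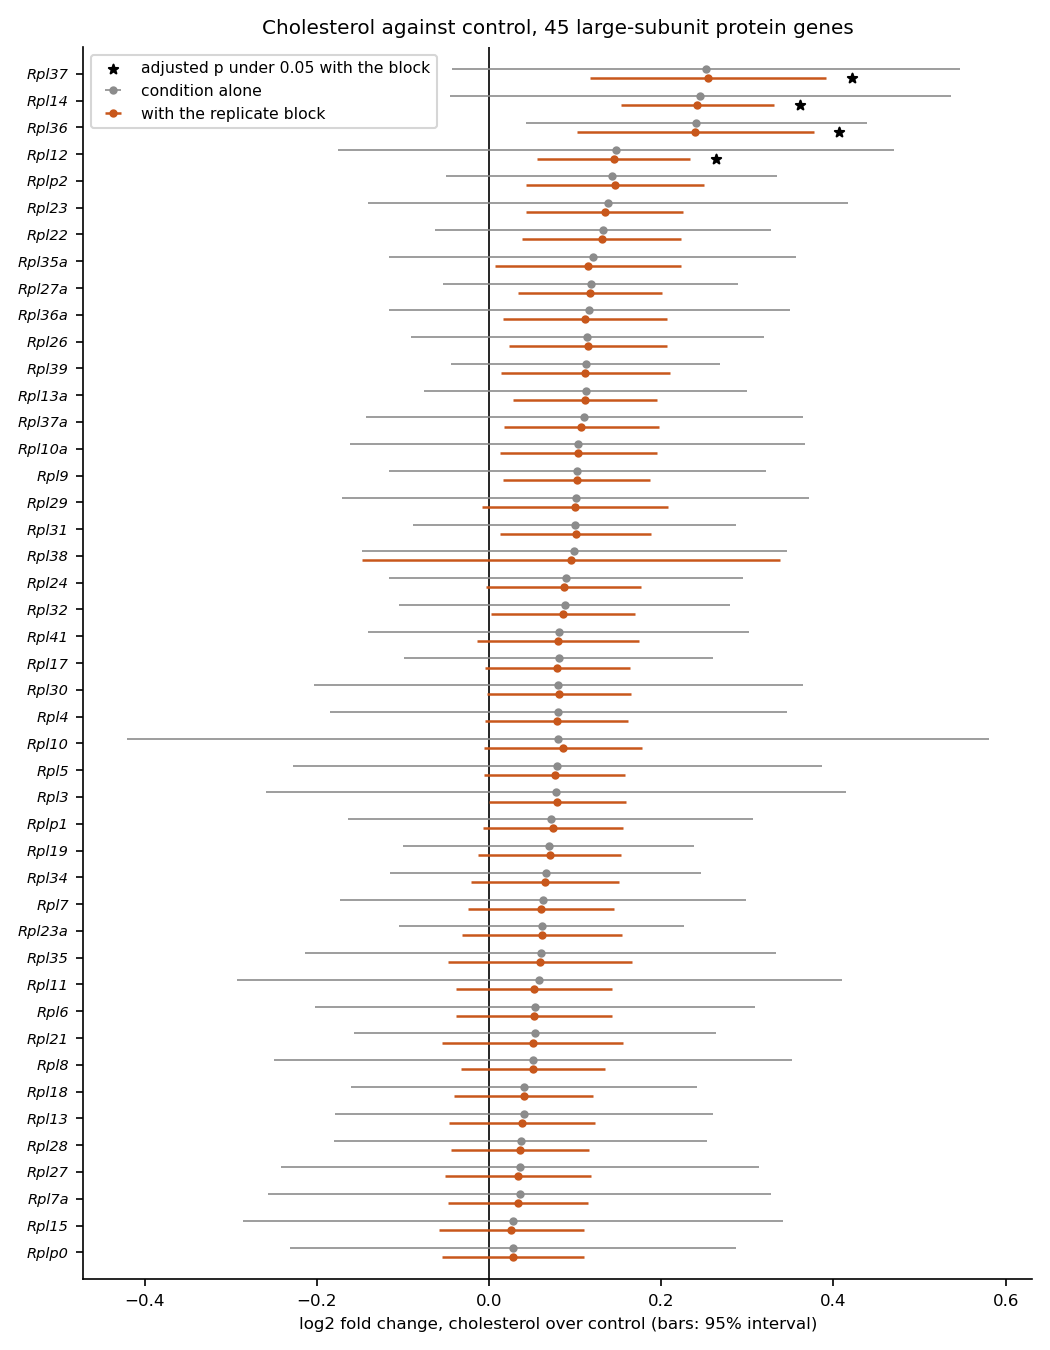
Log2 fold change of cholesterol over control for the 45 members with its 95% interval, in grey for condition alone and in orange with the replicate number as a block; stars mark an adjusted p under 0.05 with the block. All 45 points lie right of 0, from 0.03 to 0.25, and every grey interval but that of Rpl36 crosses 0.

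The same-numbered samples moved together across the genome, and the comparison within numbers had a smaller error. Standard errors fell from 0.06 to 0.21 with condition alone to 0.04 to 0.09 with the number as a block. In that fit edgeR called 4 of 45 members higher: Rpl14, Rpl37, Rpl36 and Rpl12 (1.65% of all genes were called higher). None was called lower, where 5.20% of all genes were. At an unadjusted p under 0.05 there were 18 members, against 8.0% of all genes. The calls changed with the pairs used and with the scaling. Leaving out both samples numbered 3 gave 17 calls (1.89% of all genes), leaving out both numbered 1 gave 2, Rpl14 and Rpl37 (1.03%), and leaving out both numbered 2 gave 1, Rplp2 (0.583%). With DESeq2 size factors in the blocked fit only Rpl14 and Rpl37 were called (1.43% of all genes), and with library totals alone 7 members were (2.46%).

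Rpl14, a structural protein of the subunit, had 813, 733 and 668 CPM in controls 1 to 3 and 946, 932 and 746 CPM in cholesterol samples 1 to 3. Each cholesterol sample was above the control of its number, yet cholesterol sample 3 lay below control sample 1, so the groups overlapped. The mean was 738 ± 72.5 CPM in control and 875 ± 111 CPM in cholesterol (SD, n = 3). The log2 fold change was 0.25 ± 0.12 (SE) with condition alone and 0.24 ± 0.04 with the block, at an edgeR adjusted p of 0.00127, and over all alternatives the adjusted p ran from 4.17e-09 to 0.99998.

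Rpl37, a small zinc-binding protein, had 214, 172 and 173 CPM in control and 234, 237 and 195 CPM in cholesterol samples. All 3 pairs were higher with cholesterol, by 0.13, 0.47 and 0.17 on the log2 scale, and the groups overlapped through control sample 1. Its log2 fold change of 0.25 ± 0.12 was the highest of the members, and with the block it was 0.25 ± 0.06 at an edgeR adjusted p of 0.0350 (range over alternatives 1.27e-07 to 0.99998).

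Rpl36 was one of 2 members whose groups did not overlap, with 199.7, 224 and 220.4 CPM in control and 271, 256 and 233 CPM in cholesterol samples. Every cholesterol sample was above every control sample, and the gap was widest in number 1, at 0.44 on the log2 scale. Its log2 fold change was 0.24 ± 0.08, with the lowest unadjusted edgeR p of the members, 0.0245, and an adjusted p of 0.9998. With the block the adjusted p was 0.0458 (range over alternatives 4.08e-09 to 0.99998). The other such member was Rpl39, a small protein lining the tunnel, with 252, 270.1 and 259 CPM in control and 297, 270.3 and 277 CPM in cholesterol samples. Its groups were apart by a hair only, between control sample 2 and cholesterol sample 2, and its log2 fold change of 0.11 ± 0.06 had a blocked edgeR adjusted p of 0.183. These 2 of 45 members are near the 3.72% of all genes that lay wholly above control.

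In the stalk, Rpl12 at the stalk base had 947, 834 and 749 CPM in control and 1021, 996 and 785 CPM in cholesterol samples. All 3 pairs were higher, by 0.11, 0.26 and 0.07 on the log2 scale, while the groups overlapped. Its log2 fold change was 0.15 ± 0.13 with condition alone and 0.14 ± 0.04 with the block, at an edgeR adjusted p of 0.0474 (range over alternatives 0.00078 to 0.99998).

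Rplp2, an acidic stalk protein, had 482, 538 and 449 CPM in control and 549, 535 and 538 CPM in cholesterol samples. Numbers 1 and 3 were higher with cholesterol by 0.19 and 0.26 on the log2 scale, and number 2 was at -0.01. Its log2 fold change was 0.14 ± 0.08 with condition alone, and the blocked edgeR adjusted p was 0.0901. Its partner Rplp1 had a log2 fold change of 0.07 ± 0.10 and a blocked adjusted p of 0.310. Rplp0, the anchor of the stalk and a common reference gene in quantitative PCR, was the member nearest to 0 with condition alone, at 0.03 ± 0.11, and Rpl15 was the nearest with the block. It had 3437, 3030.4 and 2839 CPM in control and 3422, 3243 and 2823 CPM in cholesterol samples, so it fell by sample number in both groups and hardly with condition.

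**Figure D3:**
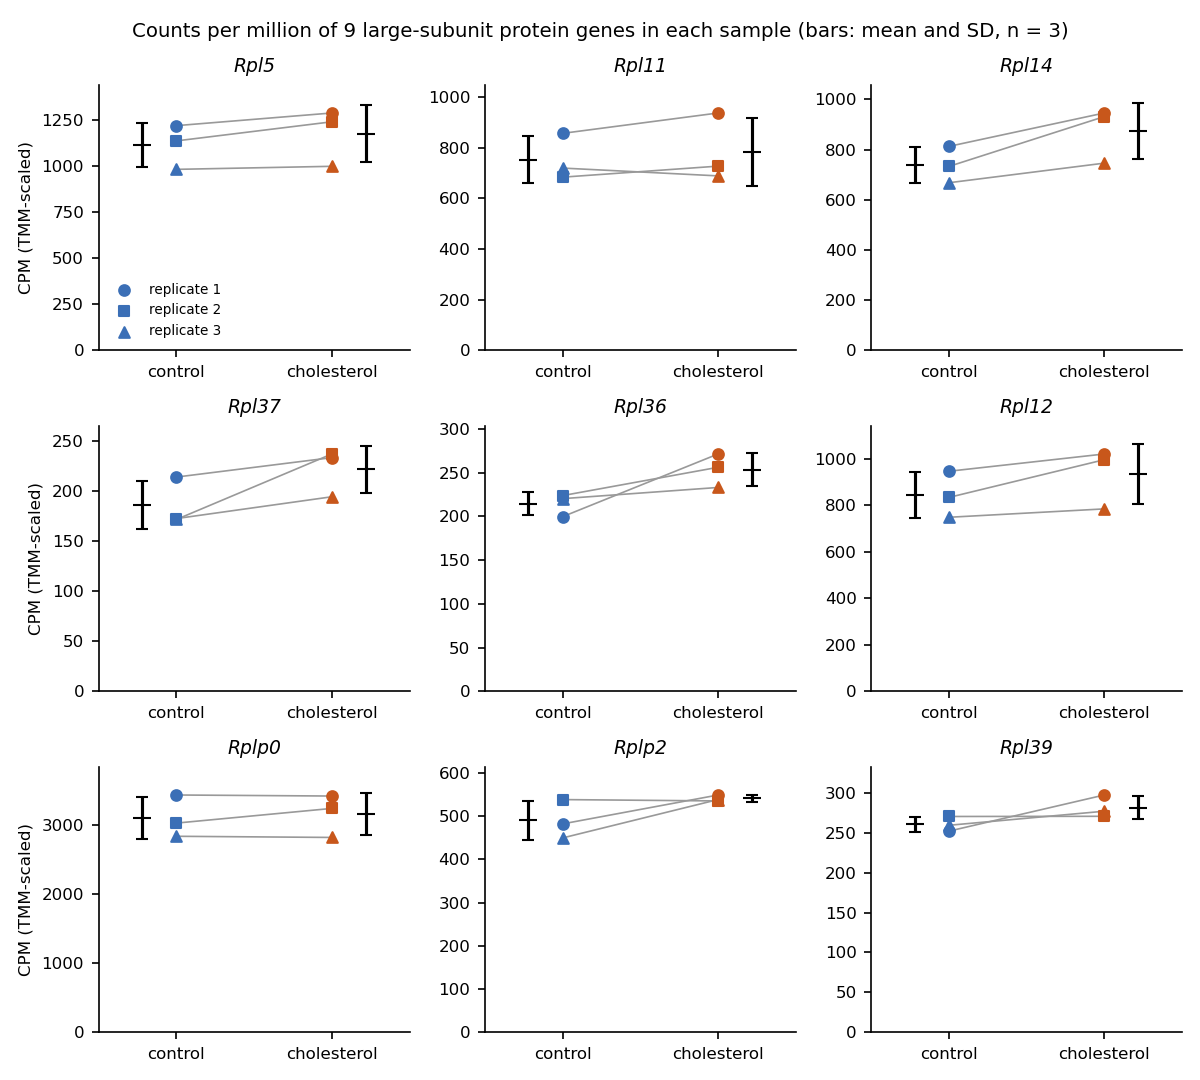
CPM (TMM-scaled, axes from 0) of 9 members in the 3 control (blue) and 3 cholesterol (orange) samples, with grey lines joining same-numbered samples and black bars for mean and SD. Rpl14, Rpl37, Rpl36 and Rpl12 go up along all 3 lines, Rplp0 along 1, and only the groups of Rpl36 and Rpl39 do not overlap.

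Neither member of the 5S particle passed a test. Rpl5 had 1221, 1138 and 984 CPM in control and 1290.0, 1242 and 1000.3 CPM in cholesterol samples. The cholesterol sample was the higher in all 3 pairs, by 0.08, 0.13 and 0.02 on the log2 scale, but the order by number was stronger, and both samples numbered 3 lay below all others. The log2 fold change was 0.08 ± 0.13 (95% interval -0.23 to 0.39) with condition alone. With the block the interval was -0.01 to 0.16 and the edgeR adjusted p 0.293, and over all alternatives the adjusted p ran from 0.0930 to 0.99998. Without control sample 3 the log2 fold change was -0.0024.

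Rpl11 had 856, 683 and 719 CPM in control and 936, 727 and 688 CPM in cholesterol samples. The pairs went both ways, with 0.13 and 0.09 on the log2 scale in numbers 1 and 2 and -0.06 in number 3. Its log2 fold change was 0.06 ± 0.15 (95% interval -0.29 to 0.41), and with the block it was 0.05 (-0.04 to 0.14) at an edgeR adjusted p of 0.566, in a range of 0.121 to 0.99998 over all alternatives. It was -0.0056 without control sample 2 and -0.089 without cholesterol sample 1. The ratio of Rpl5 to Rpl11 in FPKM was 0.734, 0.856 and 0.707 in control and 0.710, 0.881 and 0.744 in cholesterol samples. It was highest in both samples numbered 2, and the groups overlapped.

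Partners of the particle were read from a list of 11 genes that act with it in assembly or through MDM2 and p53. Their median log2 fold change was -0.03, with 5 positive and 6 negative. The blocked edgeR fit called 0 of them higher and 2 lower, both known targets of p53, where 1.65% of all genes were called higher and 5.20% lower. Cdkn1a, which encodes the cell cycle inhibitor p21, had 467, 518 and 596 CPM in control and 383, 424 and 455 CPM in cholesterol samples, with every cholesterol sample below every control sample. It was lower by a log2 fold change of -0.32 ± 0.04, at a blocked edgeR adjusted p of 5.6e-05, and not called with condition alone. Phlda3, an inhibitor of Akt, was lower by -0.28 ± 0.06 at a blocked adjusted p of 0.00713, also not called with condition alone. Trp53 itself was at 0.10 ± 0.04 and Mdm2 at -0.07 ± 0.05 with the block, neither called.

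The remaining roles gave small positive values throughout. The 7 proteins around the peptidyl transferase centre, among them Rpl3, Rpl4 and Rpl10, had log2 fold changes of 0.03 to 0.08 and a median of 0.06. The 8 proteins of the tunnel rim had a median of 0.09, with Rpl22 the highest at 0.13 ± 0.08, and the 24 others a median of 0.10. The 9 members on the list of Diamond-Blackfan anaemia genes (Rpl5, Rpl11, Rpl15, Rpl18, Rpl26, Rpl27, Rpl31, Rpl35 and Rpl35a) had a median of 0.06, between 0.03 and 0.12. None of the 9 was called in either fit (1.65% of all genes were called higher and 5.20% lower with the block), and 5 were higher in all 3 pairs (19.9% of all genes). The other 36 members had a median of 0.08.

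Within the same-numbered pairs, 27 of 45 members were higher with cholesterol in all 3, where 19.9% of all genes were. No member was lower in all 3 pairs, where 20.1% of all genes were. The pairs differed in how far they went. In number 1 the cholesterol sample was higher for 41 members, with a mean difference of 0.09 on the log2 scale. In number 2 it was higher for 44 members with a mean of 0.16, and in number 3 for 29 members with a mean of 0.03. The mean over the 3 pairs was 0.09 with an SD of 0.06. The order of the members differed from pair to pair, and the correlation of the differences over the 45 genes was -0.02 between numbers 1 and 2, 0.01 between 2 and 3, and 0.30 between 1 and 3. Rpl38 had the widest spread, at 0.08, 0.34 and -0.13.

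**Figure D4:**
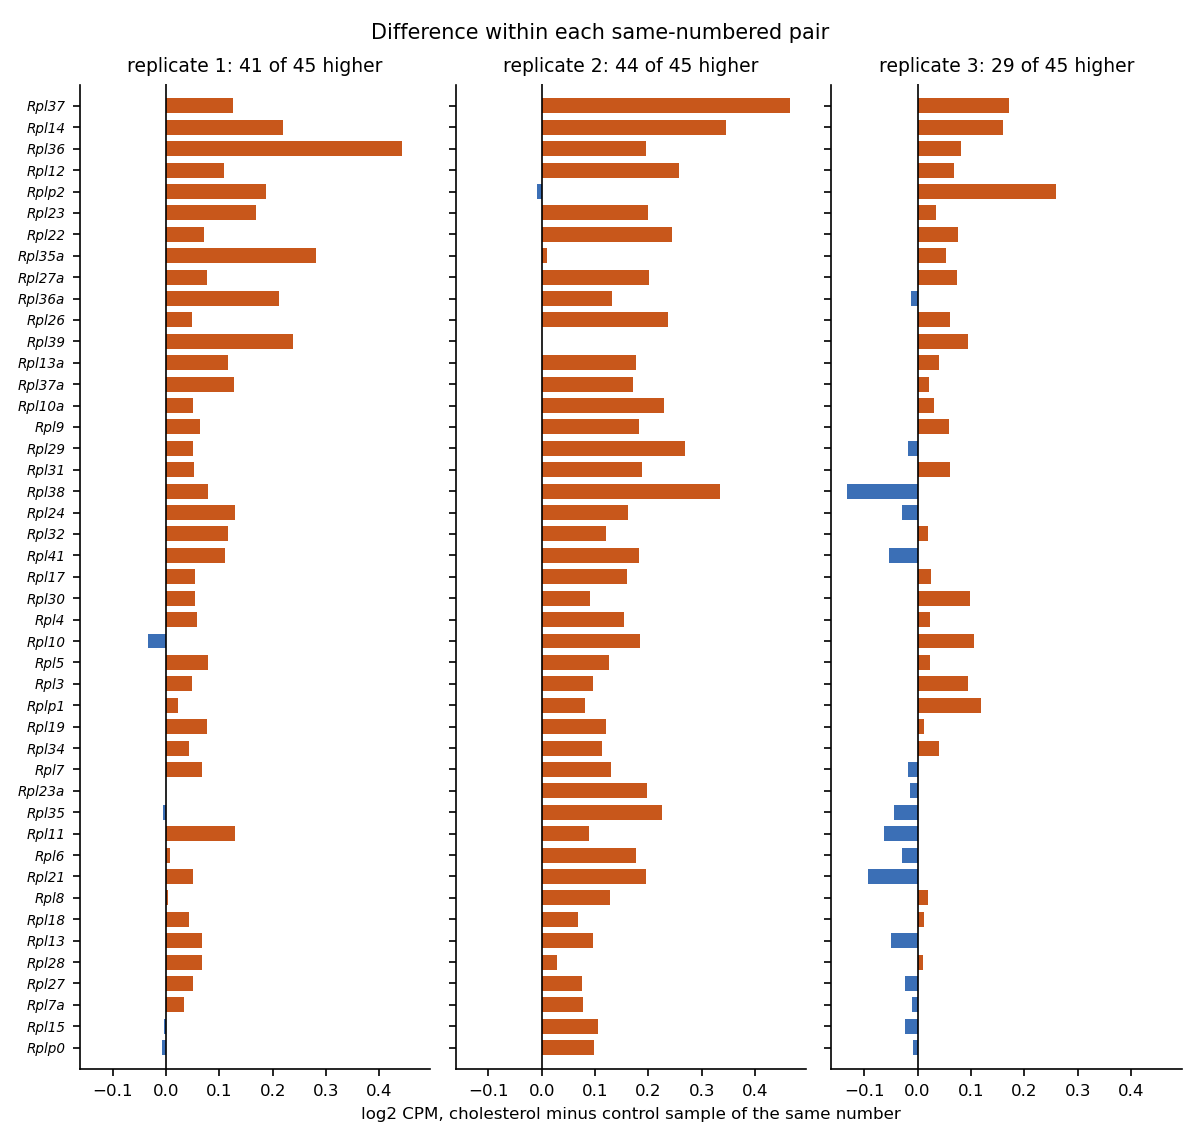
Difference in log2 CPM, cholesterol minus control, for each member within the same-numbered pair, 1 panel a number, ordered by log2 fold change. Orange bars are positive and blue bars negative, and 41, 44 and 29 of 45 bars point right in numbers 1, 2 and 3.

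The members differed more between samples numbered 1 and 3 than between the conditions, in the size of the median. In the blocked edgeR fit, 39 of 45 members were lower in samples numbered 3 than in samples numbered 1 at an adjusted p under 0.05, beside 24.9% of all genes. The median log2 fold change of number 3 over number 1 was -0.23, and the range was -0.59 to -0.03. Sample 1 was the highest of its group for 40 members in control and for 38 in cholesterol, and sample 3 was the lowest for 29 and 42. Rpl10, which joins the subunit late and lies beside the peptidyl transferase centre, had the largest difference. It had 1107, 934 and 701 CPM in control and 1081, 1062 and 755 CPM in cholesterol samples, and its log2 fold change of number 3 over number 1 was -0.59 ± 0.05 at an edgeR adjusted p of 5.9e-08. The 6 members without such a call were Rplp2, Rpl19, Rpl23a, Rpl36, Rpl38 and Rpl39. The sums of the macrophage, granulocyte and mast cell markers were highest in samples numbered 3 of each group, opposite to the members, and lower with cholesterol within every number, as were 18 of the 19 tested markers singly. With the block 16 of the 19 were called lower, among them all 9 granulocyte markers (5.20% of all genes were). The 2 mast cell markers among the 19 could pass the filter on low counts through the controls alone. The 12 erythroid markers had a median of 0.33 for number 3 over number 1 and of -0.12 for cholesterol over control. All 12 were negative, where 52.1% of all genes were positive. Of these 12, 11 were lower in all 3 pairs (20.1% of all genes were), and 4 were called lower with the block (5.20% of all genes were). A second list of 8 late erythroid markers went both ways, with 4 positive, 4 negative and a median of -0.02 for cholesterol over control. In that list 4 were lower and 1 was higher in all 3 pairs (19.9% of all genes were higher), and 1 was called lower with the block.

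**Figure D5:**
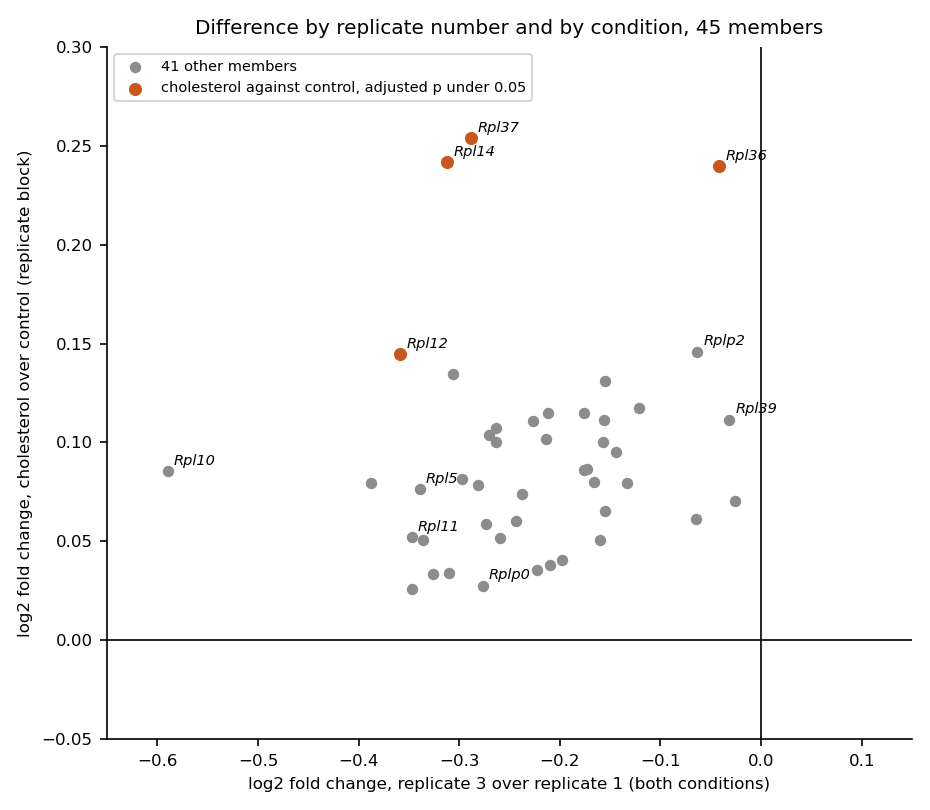
Log2 fold change of number 3 over number 1 (horizontal) against that of cholesterol over control (vertical), both from the blocked fit, for the 45 members. All points lie left of 0 and above 0, the horizontal values reach -0.59 (Rpl10), and the 4 orange points are the members called higher with cholesterol.

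All 32 genes of 40S proteins were positive with a median log2 fold change of 0.08, 16 were higher in all 3 pairs (19.9% of all genes were), and the blocked edgeR fit, which called 1.65% of all genes higher, called 2, Rps27 (0.19 ± 0.05, adjusted p 0.0236) and Rps20 (0.15 ± 0.04, adjusted p 0.0467), with none in the fit of condition alone. Of 47 factors that assemble the 60S subunit, 33 were positive and 14 negative, with a median of 0.03, and 1, the nucleolar factor Ppan, was called higher with the block (0.19 ± 0.05, adjusted p 0.0351). Other messengers with a TOP start, mostly translation factors, had a median of 0.07, with 13 of 17 positive and 1 called with the block, the initiation factor subunit Eif3f (0.17 ± 0.04, adjusted p 0.0160).

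Paralogs of the members were also read. Rpl22l1 had 58.5 to 106 CPM, against 342 to 419 CPM for Rpl22, and log2 fold change 0.11 ± 0.25. Rpl36al had 125 to 176 CPM and Rpl7l1 65.3 to 80.9 CPM, at 0.06 ± 0.15 and -0.00056 ± 0.10. Rpl39l and Rpl3l stayed between 0.40 and 1.33 CPM, where 3 counts equal 0.15 CPM, and Rpl10l did not pass the filter. No paralog was called in either fit.

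Ribosomal protein genes have many processed pseudogenes, and this limits the value of any single member. In 1 annotated transcript per member, between 5.2% (Rpl22) and 95.1% (Rpl35) of the stretches of 50 bases, the length of a read, also occurred in another gene. That transcript was the coding one nearest to the length implied by count and FPKM, and it could still differ from it. It had 946 bases for Rpl35, against an implied 429, and 1242 bases for Rpl12, against an implied 621. How the submitters' estimates divided such reads was not given in the sources used here. Of the members, 23 had whole-number counts in all 6 samples and 22 had at least 1 count that was not whole. Their median log2 fold changes were both 0.08. Of the 4 members called with the block, Rpl14 shared 49.3%, Rpl37 31.3%, Rpl36 81.1% and Rpl12 49.4% of these stretches, and the log2 fold change over the members had a correlation of r = -0.18 with this share (n = 45).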

How the data were processed

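RNA-seq libraries of 6 samples, 3 control and 3 cholesterol, were analysed from a table of estimated counts per gene and a table of FPKM. The authors deposited estimated counts, and the tool that made them is not given in the sources used here; per the labels the submitters' processing notes name HISAT2 2.0.4, Bowtie2 2.2.5, RSEM 1.2.12, DESeq2 1.4.5 and GRCm38.p6, without roles. The FPKM were deposited beside them, and the unit was inferred, since count and FPKM imply 1 length per gene (median ratio of largest to smallest 1.01 over 3109 genes). Between 27.9% and 29.5% of counts were not whole, and counts were rounded. Strand was not stated. No 2 libraries agreed within sampling noise.

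Counts were filtered with filterByExpr (minimum count 10), scaled by TMM and tested in edgeR 4.0.16 (R 4.3.3) by robust quasi-likelihood with condition as the only term, with Benjamini-Hochberg adjustment over 11277 genes and a threshold of 0.05. The replicate number as a block was an alternative. After subtracting the group means, samples that carry the same number correlated at 0.73, 0.35 and 0.82 across genes, so the numbers were read as pairs. Control 1 with cholesterol 2 reached 0.35 as well and control 2 with cholesterol 1 0.12, and the other combinations were negative; the pairing comes from the data, not from the labels. Other alternatives used DESeq2 1.42.0, limma 3.58.1 on log2(FPKM + 1) or log2(FPKM + 0.1), other scalings and filters, and left out single samples. CPM values are TMM-scaled, and errors are SD over 3 samples or SE of the fit. With 3 against 3 samples an exact permutation test cannot go below 0.1, so none was used. For values near 0, 3 counts were taken as the floor of depth. Overlapping and near-identical genes were not separated further. Start-site sequences and RefSeq gene models are of GRCm38.p6.

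The members and all gene lists were chosen with earlier results of these data known. Full statistics were given for Rpl5, Rpl11, the stalk genes, members called in either fit, the 5 smallest p with condition alone, the lowest and highest log2 fold change, and, for levels, the 3 highest and 3 lowest in FPKM; of other lists, at most 3 genes with the smallest blocked p, plus paralogs. Rpl10, Rpl38, Trp53 and Mdm2 were added after their values were seen. Some genes are not reported here.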

Additional observations from a re-analysis of the deposited data

How the results depend on the processing

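The count of members called lower was 0 under all 21 alternatives to condition alone. With condition alone and other scalings, filters or tools, and without any single sample, 0 members were called higher. The replicate block gave 4 (1.65% of all genes), and 2, 1 and 17 without both samples numbered 1, 2 or 3 (1.03%, 0.583% and 1.89%). The pairing with other scalings, chosen after seeing the data, gave 7 with library totals alone (2.46%), 2 with DESeq2 size factors (1.43%) and 4 with TMM without the adult globin genes (1.58%). The block changed no call of Rpl5 or Rpl11. With the block, library totals alone called 277 genes higher and 436 lower among all genes, and TMM 186 and 586.

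The median log2 fold change ranged from 0.036 to 0.153 when 1 sample was left out (0.036 without cholesterol sample 1, 0.145 without control sample 1 and 0.153 without cholesterol sample 3). Leaving out 1 sample gave 1 to 26 members with groups apart (10 without control sample 1 and 26 without cholesterol sample 3, where 7.83% and 11.7% of all genes lay above). The block without both samples numbered 1, 2 or 3 gave 10, 4 and 25, where 12.4%, 8.9% and 15.6% of all genes did. TMM without the adult globin genes gave 1, with and without the block (3.73% of all genes), as did a minimum of 10 counts in every sample (3.47%). Between 26 and 38 members were higher in all 3 pairs, with 38 under library totals alone and under both FPKM fits, where 29.2% and 27.8% of all genes were.

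Of the 45 members, 11 were negative without control sample 3 (lowest -0.079), 11 without cholesterol sample 1, 7 in the block without number 2, and 1 each without control sample 2 and without cholesterol sample 2. Among the members named in detail, signs turned, with no call, for Rpl5 without control sample 3 (-0.0024), for Rpl11 without control sample 2 (-0.0056) and without cholesterol sample 1 (-0.089), for Rplp0 without control sample 3 (-0.031), without cholesterol sample 1 (-0.032) and in the block without number 2 (-0.0074), for Rplp1 without control sample 3 (-0.0051), and for Rpl23a in the block without number 2 (-0.0065). Without 1 sample, Rpl5 ranged from -0.0024 to 0.187, Rpl11 from -0.089 to 0.165, Rplp0 from -0.032 to 0.112 and Rplp1 from -0.0051 to 0.138. The cause was not tested.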
